A study of Mus musculus with 8 samples.

Results

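Isoforms of the pumps that move sodium and calcium out of the cell were followed through the maturing mouse testis. They were taken by gene symbol from the table of the staged testis RNA-seq, and all 6 were found among its 23983 genes: Atp1a4, Atp1b1 and Atp1b3 of the Na,K-ATPase, and Atp2b1, Atp2b2 and Atp2b4 of the plasma membrane calcium ATPases (PMCA). Atp1a4 and Atp2b4 are taken here as the sperm isoforms, and the others as the general isoforms.

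The Na,K-ATPase is built from a catalytic alpha subunit, which splits ATP to exchange sodium for potassium, and a beta subunit, which brings the alpha subunit to the cell surface. The PMCA pumps are single polypeptides that use ATP to push calcium out of the cell and are switched on by calmodulin. Sperm are known for pumps of their own: the alpha subunit encoded by Atp1a4 is found in male germ cells and the sperm tail, and the calcium pump encoded by Atp2b4 is the main PMCA of the sperm tail, and both are needed for sperm motility.

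RNA was measured in testis of untreated C57BL/6J mice on days 12, 16 and 24 after birth (d12, d16, d24) and in adult testis, whose age the labels do not give. No allele other than the strain is named for any library. Each stage is 1 library made from total RNA of a piece of testis, so no difference between stages could be set against the spread between animals, and no test was run. The first wave of sperm formation is roughly synchronous at these ages, so the libraries differ in which germ cells they hold. In a bulk tissue, fewer cells of a type and less RNA per cell cannot be told apart.

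Levels are given as FPKM, named for fragments per kilobase of transcript per 1000000 mapped fragments, which allows genes to be compared per length. The implied number of fragments on genes ran from 8910413 at d12 to 23689457 at d24, and 1 fragment on a transcript of 1 kb was worth between 0.0455 FPKM at d24 and 0.112 FPKM in the adult. The deposited values carry a scaling besides depth. In effect the adult values were divided by 8917180 fragments, fewer than the 12053916 implied on genes. Those at d12 were divided by 12523500, more than the 8910413 implied on genes. Intervals beside a value are exact 95% intervals on the recovered fragments, and they cover counting error only. The FPKM sum was 283580 at d12 and 659202 in the adult. From d12 to the adult the median gene changed by 0.20 on the log2 scale as deposited, by -0.996 when all libraries were given the same FPKM sum and by -0.45 after division by the upper quartile. A direction between stages that turns under these scalings is named where it is given.

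The sequence just upstream of the start sites was compared between the members. Shown are the windows of Atp1a4 and Atp1b3, which were at least 2-fold higher in the adult than at d12 and averaged 1 FPKM or more, and of Atp2b4, which shares the sperm label with Atp1a4. The windows hold the 250 bases before each RefSeq start site in GRCm38.p6, written 5′ to 3′ in the direction of the gene. Capitals mark the only match to the motifs searched.
Atp1a4: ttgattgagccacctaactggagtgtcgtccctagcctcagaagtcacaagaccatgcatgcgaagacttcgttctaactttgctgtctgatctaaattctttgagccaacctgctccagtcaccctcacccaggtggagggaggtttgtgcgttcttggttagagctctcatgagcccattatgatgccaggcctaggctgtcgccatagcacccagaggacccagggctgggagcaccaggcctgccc
Atp1b3: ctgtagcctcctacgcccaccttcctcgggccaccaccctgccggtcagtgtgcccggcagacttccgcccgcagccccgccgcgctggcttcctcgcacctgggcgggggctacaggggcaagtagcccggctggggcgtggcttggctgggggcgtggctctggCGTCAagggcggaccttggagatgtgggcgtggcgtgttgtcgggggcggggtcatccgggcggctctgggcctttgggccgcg
Atp2b4: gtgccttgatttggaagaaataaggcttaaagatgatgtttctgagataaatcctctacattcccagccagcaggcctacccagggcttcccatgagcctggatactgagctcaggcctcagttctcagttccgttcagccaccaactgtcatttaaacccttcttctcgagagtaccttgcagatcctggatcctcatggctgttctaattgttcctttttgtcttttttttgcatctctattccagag

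The window of Atp1a4 lies at chr1:172258425-172258674, that of Atp1b3 at chr9:96364432-96364681 and that of Atp2b4 at chr1:133753748-133753997, all on the minus strand. The Atp2b4 window lies before the shared start of its 2 curated transcripts, inside the span annotated for the gene, and the sequence before the outer end of that span was not analysed here. That span runs on upstream to 133801059, and whether the Atp2b4 window holds a promoter was not tested. Its values below describe the letters of this window alone. The Atp1a4 window held 5 CpG dinucleotides with 54.8% G and C, close to the median of 6 with 52.4% over 32851 such windows, and the Atp2b4 window held 2 with 45.6%. The windows of the general isoforms that were well expressed held more, 24 for Atp1b1, 35 and 24 for the start sites of Atp1b3, and 43 and 41 for those of Atp2b1. Atp2b2, which was hardly detected, had 6, 6 and 16.

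Motifs of factors known from spermatids were searched on both strands, namely TGACGTCA (the cAMP response element, which CREM binds), its shorter core TGACG, which lies inside it, and GTTGCC (the core that RFX factors bind). Among the members, only the printed Atp1b3 window held a match, TGACG on the reverse strand at -84 from the start site. Of all windows, 1.55% held TGACGTCA, 17.8% held TGACG and 10.4% held GTTGCC. These matches are descriptions of the letters alone, and for Atp2b4 the search covered only the window inside its annotated span.

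Reads can tell the isoforms apart over most of their length. Over the whole coding sequence, Atp1b3 was 59.3% identical to Atp1b1, and Atp2b4 was 72.1% identical to Atp2b1. Of the 50-base stretches of Atp1a4, 2.5% recurred in the transcripts of other genes, 0.0733% of those of Atp2b2 recurred in Atp2b3, and none of Atp1b1, Atp1b3, Atp2b1 or Atp2b4 recurred in another transcript.

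Atp1a4 was the member whose level differed most between stages. The gene lies at chr1:172223508-172258424 (GRCm38, minus strand) with 23 exons and 1 curated transcript. Its level was 0.0229 FPKM at d12, 0.0918 FPKM at d16, then 57.0 FPKM at d24 and 300.0 FPKM in the adult. The early values rest on 1 fragment at d12, with an interval of 0.000580 to 0.128 FPKM, and on 4 fragments at d16, with an interval of 0.0250 to 0.235 FPKM. These intervals overlap, so no difference between d12 and d16 was detectable at this depth. The later values rest on 4365 fragments at d24 and 9324 fragments in the adult, and their intervals of 55.3 to 58.7 FPKM and 294.0 to 306.2 FPKM lie apart.

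From d16 to d24 the ratio of Atp1a4 was 620.9, with an interval of 242.3 to 2279.9. From d24 to the adult it was 5.26-fold higher, with an interval of 5.08 to 5.46, and 3.77-fold higher when all libraries were given the same FPKM sum. Among all 23983 genes ordered from the highest FPKM, Atp1a4 moved from place 17467 at d12 to place 1836 at d24 and place 394 in the adult.

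**Figure D1:**
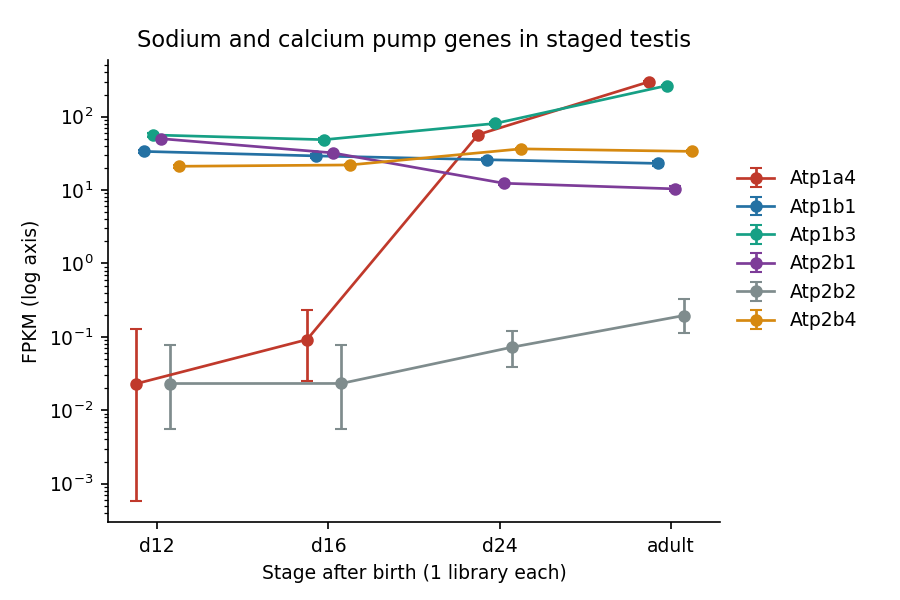
FPKM of the 6 pump genes (log axis) in the d12, d16, d24 and adult testis libraries, 1 point per library, with bars for the exact 95% counting interval. Atp1a4 goes from 0.0229 FPKM at d12 to 300.0 FPKM in the adult, Atp1b3 goes from 56.3 to 264.3 FPKM, Atp2b1 goes from 50.04 to 10.4 FPKM, and Atp2b2 stays under 0.2 FPKM.

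Of the beta subunits, Atp1b3 was the one that was higher in the later libraries. The gene lies at chr9:96332655-96364431 on the minus strand and has 3 curated transcripts. Its level was 56.3 FPKM at d12, 48.6 at d16, then 80.9 at d24 and 264.3 in the adult, from 1382, 1189, 3479 and 4616 fragments. It was thus well expressed before Atp1a4 was, in both early libraries. From d16 to d24 it was 1.66-fold higher (interval 1.56 to 1.78), but only 1.08-fold higher with equal FPKM sums. From d24 to the adult it was 3.27-fold higher (3.13 to 3.42), and 2.34-fold higher with equal FPKM sums.

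Atp1b1, the general beta subunit, was at least 2-fold lower in the adult than at d12 after upper quartile scaling and with equal FPKM sums. It was not as deposited or under median ratio scaling, which nearly equals the deposited values. It lies at chr1:164437099-164458355 on the minus strand, has 6 exons and overlaps Nme7, which is transcribed from the other strand. The libraries and their mapping are strand-specific. Atp1b1 was at 33.6 FPKM at d12, 29.2 at d16, then 25.9 at d24 and 23.1 in the adult, from 1090, 946, 1475 and 533 fragments. The adult value was 1.46-fold lower than that at d12 (interval 1.31 to 1.62), and the ratio of adult to d12 was 0.687 as deposited, 0.435 after upper quartile scaling and 0.295 with equal FPKM sums.

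The ratio of isoforms within 1 library does not depend on the scaling between libraries. The balance between the beta subunits shifted towards 1 of them between d16 and the adult. Atp1b3 over Atp1b1 was 1.68 at d12 (interval 1.55 to 1.82) and 1.66 at d16 (1.53 to 1.81), so these overlapped. The ratio was 3.12 at d24 (2.93 to 3.32) and 11.5 in the adult (10.5 to 12.6). Atp1b3 held 46.5% of the beta subunit FPKM at d12 (44.8 to 48.2), 48.8% at d16, then 65.8% at d24 and 90.0% in the adult (89.2 to 90.7), and Atp1b1 held 27.7%, 29.4%, 21.1% and 7.85%. The remaining beta subunits were Atp1b2, an adhesion molecule of glia that also pairs with alpha subunits, at 31.1, 21.6, 16.03 and 6.40 FPKM, and Atp1b4 at or under 0.0562 FPKM, on at most 3 fragments per library.

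Set against the beta subunit directly, Atp1a4 stood at 0.00189 of the FPKM of Atp1b3 at d16, then 0.705 at d24 (interval 0.674 to 0.737) and 1.14 in the adult (1.096 to 1.18). Atp1b3 thus preceded Atp1a4 as the more abundant of the pair up to d24, and Atp1a4 was the more abundant in the adult.

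Of the calcium pumps, Atp2b1 and Atp2b4 made up nearly all of the RNA, and their order was reversed between d16 and d24. Atp2b1, the general PMCA of most cells, lies at chr10:98914630-99026143 on the plus strand with 5 curated transcripts. It was at 50.04 FPKM at d12, 32.1 at d16, then 12.4 at d24 and 10.4 in the adult, from 4511, 2890, 1958 and 666 fragments. From d16 to d24 it was 2.59-fold lower (interval 2.45 to 2.75), and from d12 to the adult 4.82-fold lower (4.44 to 5.24), with no overlap between neighbouring stages.

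Atp2b4, labelled as the sperm isoform, did not behave like Atp1a4. It lies at chr1:133702674-133801059 on the minus strand with 2 curated transcripts, and was at 21.1 FPKM at d12, 22.0 at d16, then 36.4 at d24 and 33.6 in the adult, from 2165, 2253, 6559 and 2459 fragments. It was therefore well expressed in the d12 library, in which Atp1a4 had 1 fragment. The adult level was 1.60-fold that at d12 (interval 1.51 to 1.69) as deposited, 1.01-fold after upper quartile scaling, and lower, at a ratio of 0.686, with equal FPKM sums. The ratio from d12 to d16 was 1.04 as deposited, with an interval of 0.983 to 1.11 that holds 1, and turned to 0.960 with equal FPKM sums and 0.951 after upper quartile scaling.

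Within a library, however, Atp2b4 and Atp2b1 changed places. The FPKM of Atp2b4 over that of Atp2b1 was 0.421 at d12 (interval 0.4002 to 0.444), 0.685 at d16 (0.648 to 0.724), then 2.94 at d24 (2.80 to 3.10) and 3.24 in the adult (2.97 to 3.54). The last pair of intervals overlaps. Atp2b4 held 29.5% of the PMCA FPKM at d12 (28.4 to 30.6), 40.3% at d16, then 72.9% at d24 and 74.1% in the adult (72.5 to 75.7), and Atp2b1 held 70.0%, 58.8%, 24.8% and 22.9%. The summed FPKM of the 4 PMCA genes was 71.5, 54.6, 49.9 and 45.4, so the larger share of Atp2b4 went with a lower level of Atp2b1 more than with a higher level of Atp2b4.

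**Figure D2:**
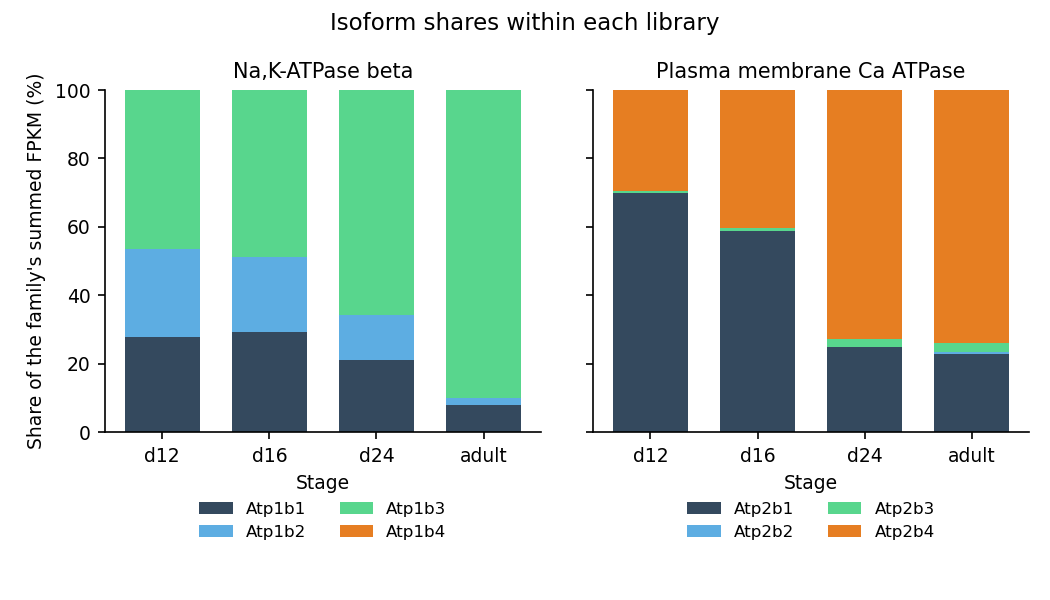
Share of each isoform (%) in the summed FPKM of the 4 beta subunits and the 4 PMCA genes, 1 stacked bar per library. Atp1b3 takes 90.0% of the beta subunits and Atp2b4 takes 74.1% of the PMCA genes in the adult, against 46.5% and 29.5% at d12.

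Atp2b2, a PMCA known from neurons and the hair cells of the inner ear, was hardly detected. The gene lies at chr6:113743831-114042613 on the minus strand, and it was at 0.0231, 0.0232, 0.0725 and 0.195 FPKM, from about 3, 3, 14 and 16 fragments. The values at d12 and d16 lie under the level that 3 fragments give, 0.0267 and 0.0268 FPKM. From d24 to the adult the ratio was 2.69, with a wide interval of 1.23 to 5.95. Atp2b3, the remaining PMCA, was at 0.367, 0.462, 1.06 and 1.20 FPKM.

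The order of the 6 members within each library shows these exchanges. At d12 it ran Atp1b3, Atp2b1, Atp1b1, Atp2b4, and then Atp2b2 and Atp1a4, which could not be separated. At d16 it ran Atp1b3, then Atp2b1 and Atp1b1 with overlapping intervals, then Atp2b4, and then Atp1a4 and Atp2b2, which again overlapped. At d24 it ran Atp1b3, Atp1a4, Atp2b4, Atp1b1, Atp2b1 and Atp2b2, and in the adult Atp1a4, Atp1b3, Atp2b4, Atp1b1, Atp2b1 and Atp2b2, with no neighbours overlapping in either library.

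Changes between stages were then read against all genes, on the scale of log2(FPKM + 0.1), for the 13901 genes whose FPKM averaged 1 or more over the 4 libraries. Of the members, 5 passed this filter and Atp2b2 did not. Atp1a4 passed it only through the libraries in which it was high, at 57.0 FPKM at d24 and 300.0 in the adult. Its calls as higher are therefore not independent of the filter. From d12 to d16, 0 of the 5 were at least 2-fold higher and 0 at least 2-fold lower, where 12.6% and 3.67% of all genes were. From d16 to d24, Atp1a4 was at least 2-fold higher and Atp2b1 at least 2-fold lower, beside 27.5% and 8.45% of all genes. From d24 to the adult, Atp1a4 and Atp1b3 were at least 2-fold higher and 0 members lower, beside 11.4% and 2.2% of all genes. From d12 to the adult, Atp1a4 and Atp1b3 were higher and Atp2b1 was lower, beside 35.7% and 23.1%. With equal FPKM sums the shares of all genes become 19.4% higher and 30.2% lower from d16 to d24, and 23.2% and 49.9% from d12 to the adult, with 27.8% and 37.9% from d12 to the adult after upper quartile scaling.

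The size of each member's change differed more than these counts. From d16 to d24 the log2 change was 8.22 for Atp1a4, above 99.2% of all genes, 0.73 for Atp1b3 and for Atp2b4, and -1.37 for Atp2b1, above 2.68% of all genes. The median gene changed by 0.13. From d24 to the adult it was 2.39 for Atp1a4 and 1.71 for Atp1b3, above 98.3% and 95.1% of all genes, against -0.02 for the median gene. Atp2b4 changed by -0.11 in that step, and Atp1b1 by -0.17. The median of the 5 members was -0.20, 0.73 and -0.11 over the 3 steps.

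**Figure D3:**
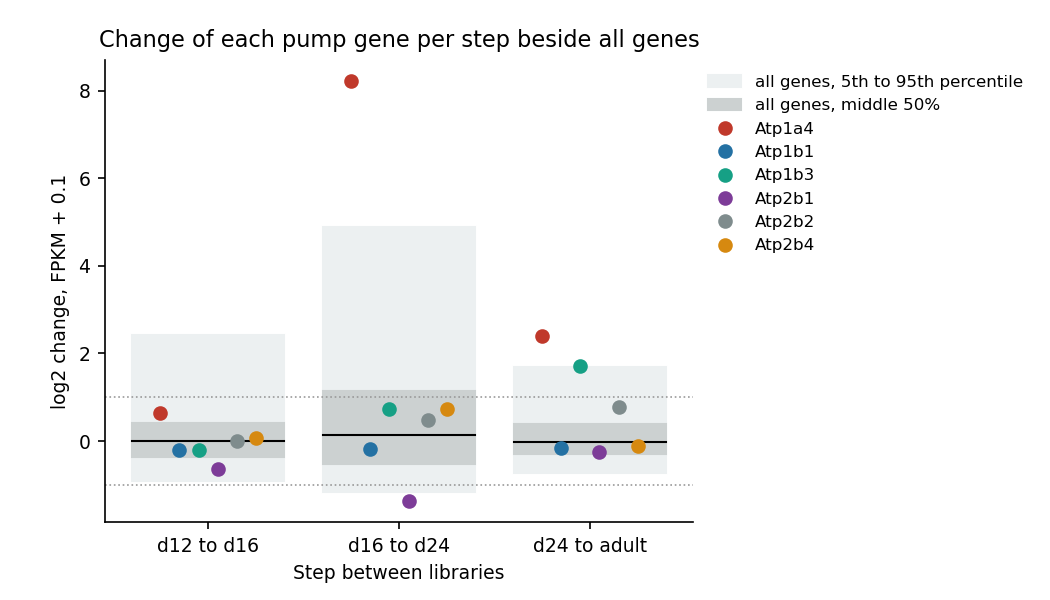
Change in log2(FPKM + 0.1) of each pump gene over the 3 steps between libraries, with grey boxes for all 13901 genes (darker, middle 50%; lighter, 5th to 95th percentile; line, median) and dotted lines at 2-fold. Atp1a4 lies at 8.22 from d16 to d24 and at 2.39 from d24 to the adult, both above the boxes, while Atp2b4 lies inside the darker box in each step (its d12 to d16 value turns below 0 under 2 other scalings).

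Genes with a course most like each member were found by the distance between their 3 log2 changes. For Atp1a4 the nearest were Tssk2 (distance 0.538), Cylc1 (0.622), 1700052I22Rik (0.652), 1700101O22Rik (0.665) and Spz1 (0.677), over 4 libraries, and 34 genes lay within a distance of 1. The d12 to d16 change of Atp1a4 in this distance, 0.64, rests on 1 fragment at d12 and 4 at d16. The order of these genes is therefore not settled at this depth. From d16 to d24 and from d24 to the adult, Atp1a4 changed by 8.22 and 2.39. In those steps 1700052I22Rik changed by 8.33 and 2.41, and Tssk2 by 7.95 and 2.35. Tssk2, a kinase of spermatids and nearest by the full distance, was at 0.345, 0.403, 124.4 and 633.8 FPKM. Cylc1, a protein of the sperm head, was at 0, 0.0408, 33.9 and 124.2 FPKM. For Atp1b3 the nearest were Srgap1 (0.164), Map2k3os, Rangap1, Cacul1 and Itpripl1 (0.213). Rangap1, an activator of the Ran GTPase, was at 33.0, 27.1, 50.9 and 172.8 FPKM.

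The courses of Atp2b4, Atp2b1 and Atp1b1 were common in the table. For Atp2b4 the nearest were Nktr (0.0278), Coq9, Lin37, Snw1 and Atf2 (0.0754), with 1060 genes within a distance of 0.5. For Atp2b1 they were Ptma (0.0458), Prkar2b, Sema3c, Prrx1 and Rbmx2 (0.110), with 540 genes within that distance, and for Atp1b1 Pak2 (0.0343), Rps9, Serinc3, Npat and Txnl4a (0.0478), with 2156. For Atp2b2, which was below the filter, they were Ttpa, Rhobtb2, Fuca1, A330035P11Rik and Stc1 (0.0607 to 0.113). The changes of Atp2b2 rest on about 3, 3, 14 and 16 fragments and are made smaller by the pseudocount. Its adult FPKM was 8.43-fold that at d12 (interval 2.41 to 45.1), but 2.39-fold with the pseudocount. Its likeness to other genes is therefore not settled. The sperm isoforms Atp1a4 and Atp2b4 lay 7.92 apart, while Atp2b4 lay 0.936 from Atp1b1. Atp2b4 lay 0.921 from Atp2b2, a value with the same limit.

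Of the germ cell marker lists, those of pachytene spermatocytes and spermatids were higher in the later libraries. The summed FPKM of 6 round spermatid markers (Acrv1, Spaca1, Izumo1, Tssk2, Catsper3, Spaca7) was 3.15 at d12, 4.05 at d16, then 575.3 at d24 and 1810 in the adult, with Acrv1, Catsper3 and Spaca7 at 0 at d16. All 6 were at least 2-fold higher at d24 than at d16 under each of the 4 scalings, beside 27.5% of all genes as deposited and 19.4% with equal FPKM sums. That sum stood at 31.8% of its adult value at d24, where Atp1a4 stood at 19.0% and Atp1b3 at 30.6%. At d12 and d16 the round spermatid sum stood at 0.174% and 0.223% of its adult value. Atp1a4 stood at 0.00764% and 0.0306% there, but Atp1b3 at 21.3% and 18.4%. The sum of 6 elongating spermatid markers (Prm1, Prm2, Tnp1, Tnp2, Odf1, Smcp) was 13.1, 4.42, 2424 and 26742 FPKM, and stood at 9.06% of its adult value at d24. The 6 pachytene spermatocyte markers (Hspa2, Ldhc, Pgk2, Piwil1, Ccna1, Adam2) were at 49.6, 875.0, 3832 and 4559 FPKM in sum, so they were at 19.2% of the adult sum at d16, where Atp1a4 had 4 fragments. The 6 early meiotic spermatocyte markers (Sycp1, Sycp3, Dmc1, Spo11, Prdm9, Meiob) did not share this course, at 782.6, 1416, 878.2 and 863.7 FPKM in sum. Their courses differed: as deposited Spo11 was at least 2-fold higher in the adult than at d12, beside 35.7% of all genes. Dmc1 and Prdm9 were at least 2-fold lower, beside 23.1%. The part of any of these germ cells in the results was not tested.

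Other marker lists differed in their course. The summed FPKM of 6 Sertoli cell markers went from 175.7 at d12 to 132.8, 81.0 and 60.6, with Amh at 0 in the adult. As deposited, 5 of the 6 were at least 2-fold lower in the adult than at d12, beside 23.1% of all genes. With equal FPKM sums all 6 were, beside 49.9%. The summed FPKM of 6 spermatogonia markers went from 121.0 to 76.1, 40.1 and 29.2, of which Dmrt1 was 77.4 at d12. As deposited, 4 of these 6 (Zbtb16, Kit, Dmrt1, Sohlh1) were at least 2-fold lower in the adult than at d12, beside 23.1% of all genes. Gfra1 went from 1.20 to 2.41 FPKM and Etv5 from 2.78 to 3.37, both higher as deposited. The sum of 6 endothelial markers went from 22.5 to 15.1, 7.74 and 9.52. Relative to d12, the adult sums of the Sertoli, spermatogonia and endothelial lists were 34.5%, 24.1% and 42.4%, beside 20.7% for Atp2b1 and 68.7% for Atp1b1. Macrophage markers were at 25.1 to 29.2 FPKM in sum in every library. Leydig cell markers (Cyp11a1, Cyp17a1, Hsd3b6, Star, Insl3, Lhcgr) were at 92.8, 84.5, 163.2 and 549.0 FPKM in sum, so that they stood at 29.7% of the adult sum at d24, near Atp1b3 at 30.6%. At d12 and d16 the Leydig sum stood at 16.9% and 15.4% of its adult value, and Atp1b3 at 21.3% and 18.4%. Of the Leydig markers, Insl3 was 5.36-fold higher in the adult than at d24 on the scale of FPKM + 0.1, beside 5.26-fold for Atp1a4. Peritubular myoid markers were at 257.5, 210.9, 151.7 and 307.6 FPKM in sum, of which Actg2 alone was 225.0 FPKM in the adult. As deposited, 4 of these 6 (Acta2, Myh11, Tagln, Cnn1) were at least 2-fold lower in the adult than at d12, beside 23.1% of all genes. Des was also lower, at 4.72 and 2.71 FPKM. Only Actg2 was at least 2-fold higher, beside 35.7% of all genes. The part of these cells in the levels of the 6 members was not tested.

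**Figure D4:**
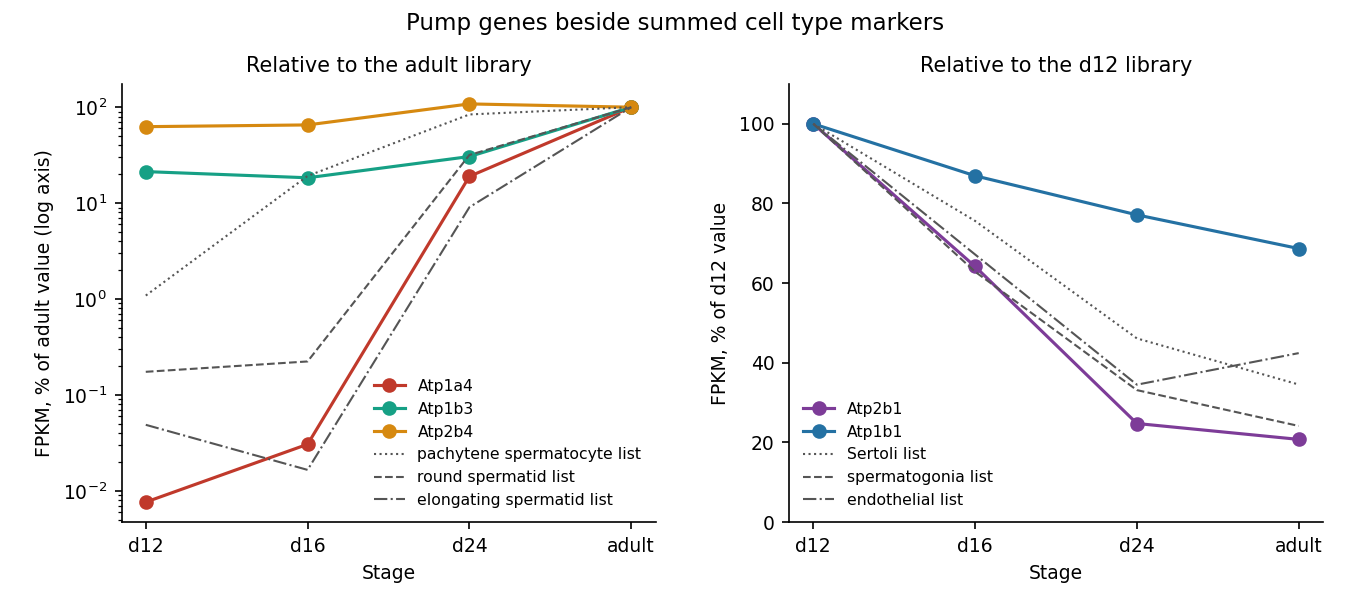
Left, FPKM of Atp1a4, Atp1b3 and Atp2b4 and the summed FPKM of 3 germ cell marker lists as a percentage of the adult value (log axis); right, FPKM of Atp2b1 and Atp1b1 and of 3 other marker lists as a percentage of the d12 value. At d24 Atp1a4 is at 19.0% and Atp1b3 at 30.6% of the adult, beside 31.8% for round and 9.06% for elongating spermatid markers. At d12 Atp1b3 is at 21.3% of the adult, beside 0.174% for round spermatid markers. In the adult Atp2b1 is at 20.7% of d12, beside 34.5% for the Sertoli markers.

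How far these statements depend on the scaling between libraries differs by gene. From d12 to the adult, the ratio of Atp1b3 was 4.69 as deposited, 2.97 after upper quartile scaling and 2.02 with equal FPKM sums, and so stayed above 1. That of Atp2b1 was 0.207, 0.131 and 0.0892, and so stayed below 1. Atp2b4 crossed 1, as given above.

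**Figure D5:**
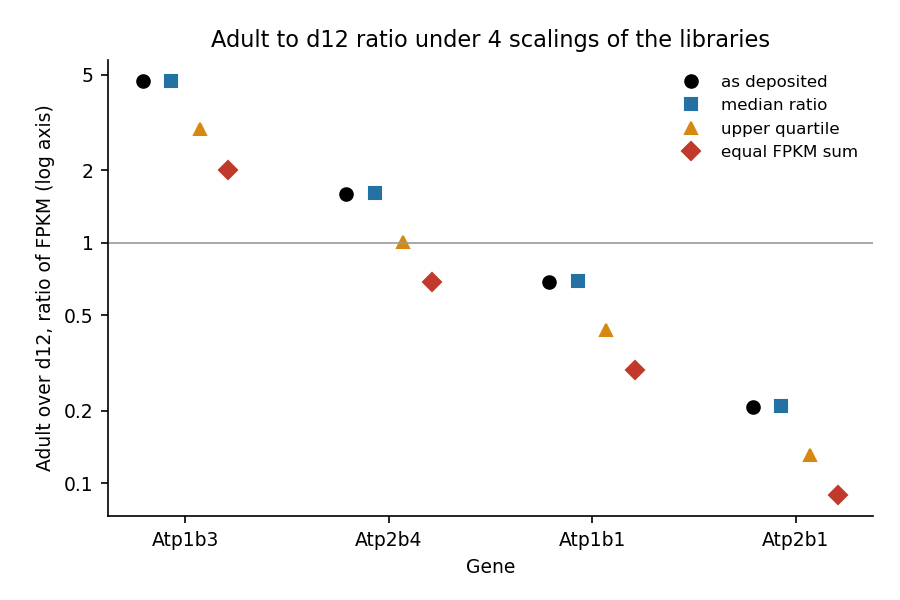
Ratio of adult to d12 FPKM (log axis) of 4 pump genes under 4 scalings of the libraries. Atp1b3 lies above 1 and Atp1b1 and Atp2b1 lie below 1 under all 4, while Atp2b4 runs from 1.61 under median ratio scaling to 0.686 with equal FPKM sums. Median ratio scaling nearly equals the values as deposited.

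The remaining genes of the pathway were counted from lists by role, over d12 to the adult, a step in which 35.7% of all genes were at least 2-fold higher and 23.1% lower as deposited, and 23.2% and 49.9% with equal FPKM sums. Of 7 FXYD regulators, small proteins that tune the Na,K-ATPase, 4 passed the filter, and Fxyd2 was at least 2-fold higher and Fxyd6 at least 2-fold lower, while with equal FPKM sums 0 were higher and Fxyd1 and Fxyd6 were lower. The most abundant, Fxyd1, was at 26.9, 19.1, 19.3 and 30.8 FPKM, and Fxyd2 at 2.71, 5.44, 6.31 and 12.3 FPKM. The 3 H,K-ATPase subunit genes, relatives of the Na,K-ATPase in stomach and colon, stayed at or under 0.460 FPKM.

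Of 5 partners of the PMCA pumps, 4 were at least 2-fold higher and 0 lower from d12 to the adult as deposited. Of all genes, 35.7% and 23.1% were. With equal FPKM sums 1 was higher and 1, Nptn, was lower, beside 23.2% and 49.9% of all genes. Nptn was at 26.3, 20.7, 15.1 and 14.3 FPKM. Among the others, Bsg, basigin, an auxiliary subunit of the PMCA pumps, was at 179.7, 247.9, 448.6 and 481.2 FPKM. It was at least 2-fold higher in the adult than at d12 as deposited, but not with equal FPKM sums. The calmodulin genes Calm2 and Calm3 were at 1629 and 523.0 FPKM in the adult, and Calm3 was at least 2-fold higher than at d12 under both scalings. Among 5 intracellular calcium ATPases, 3 passed the filter, and Atp2a3 was at least 2-fold lower as deposited, beside 23.1% of all genes. After upper quartile scaling 2 of the 3 were (Atp2a3 and Atp2c1), beside 37.9%, and with equal FPKM sums all 3 were (also Atp2a2), beside 49.9%. Atp2a2, the calcium pump of the endoplasmic reticulum, was at 50.3, 65.5, 71.9 and 51.6 FPKM, above Atp2b4 in every library.

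Of 16 exchangers that use the sodium gradient which the Na,K-ATPase makes, 10 passed the filter. From d12 to the adult, 7 were at least 2-fold higher and 2 at least 2-fold lower, beside 35.7% and 23.1% of all genes. With equal FPKM sums these were 4 and 3, beside 23.2% and 49.9% of all genes. Slc9c1, the sperm sodium/proton exchanger, was at 0.0206, 6.17, 76.6 and 89.1 FPKM, and Slc9b1, a sodium/proton antiporter of the testis, at 4.20, 31.4, 163.1 and 187.2 FPKM. Both were above 5 FPKM at d16, when Atp1a4 was at 0.0918 FPKM. Slc9a5 was at 0.979, 3.22, 9.20 and 9.19 FPKM, and Slc8a2, a sodium/calcium exchanger, at 0.509, 2.98, 8.03 and 5.06 FPKM.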

How the data were processed

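Total RNA of testis pieces at d12, d16, d24 and adult, 1 library per stage, was sequenced by the authors as strand-specific read pairs. Stages were taken from the labels. The 4 H3K27Ac ChIP-seq samples are not analysed here. The authors aligned the pairs with TopHat2 (2.1.0, running Bowtie 1.1.2) to GRCm38/mm10, keeping 1 alignment per pair. They deposited FPKM values of 23983 RefSeq genes, which Cuffdiff (Cufflinks 2.2.1) had computed while correcting for bias and multi-reads. The scaling between libraries is not given in the sources used here, but median ratio scaling of the deposited values gave divisors of only 1.007 to 1.016. The deposited values thus lie close to median ratio scaling already, and it is not a distinct alternative.

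Fragments were recovered by dividing each FPKM value by that of 1 fragment per kilobase and multiplying by the length of the RefSeq transcript (GRCm38.p6), using the mean length where transcripts differ by a factor of at most 1.1. Of values up to 20 fragments, 91.6% to 92.3% came within 0.05 of a whole number. Intervals are exact Poisson for levels and Clopper-Pearson for ratios and shares, at 95%. Log2 changes used a pseudocount of 0.1 FPKM, which understates changes of low genes. A gene was called at 2-fold, among genes whose FPKM averaged 1 or more. No test was run, as no stage has a second library.

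Alternatives were 3 other scalings, a pseudocount of 1 FPKM, folds of 1.5 and 4, no filter, and other denominators for the shares of Atp1b3 and Atp2b4. Some genes of these families, and the comparisons that need them, are not reported here. Genes named are the members, other isoforms of their families, at most 4 of the highest genes per list, the 5 nearest courses per member, and marker genes. Nptn is named besides, as the partner that was lower. The members and lists were chosen with earlier results of these data known. On simulated tables, 1 fragment was recovered to within 1% in 4 of 4 libraries. Of 200 genes changed 4-fold between d16 and d24, 200 were called at 2-fold among 13901. These were drawn from well expressed genes, and 4-fold lies well past the cut, so their recovery was nearly certain beforehand. The number of unchanged genes past 2-fold is not given here. Only counting noise was simulated, so the simulation does not bear on the spread between animals. Python 3.11.15, numpy 2.4.6, pandas 2.3.3, scipy 1.17.1, Biopython 1.88 and pysam 0.24.0 were used.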

Additional observations from a re-analysis of the deposited data

How the results depend on the processing

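Of 168 alternative values for 40 results, 117 moved by less than their interval or stayed within 1.5 times, 51 moved, and no called value changed sign. Values under median ratio scaling could hardly move, since the deposited values lie close to that scaling already. With Atp1b1 and Atp1b3 alone, the share of Atp1b3 was 62.6%, 62.4%, 75.7% and 92.0% from d12 to the adult. With Atp2b1 and Atp2b4 alone, the share of Atp2b4 was 74.6% at d24 and 76.4% in the adult, and with the intracellular calcium ATPases added it was 13.8%, 15.3%, 26.5% and 29.5%. At a fold of 1.5, 1 member was higher and 1 lower from d12 to d16, beside 20.3% and 13.4% of all genes. The higher was Atp1a4, on 1 fragment at d12 and 4 at d16. At that fold 3 were higher from d16 to d24, beside 36.5%. At a fold of 4, 0 were lower from d16 to d24 and 1 was higher from d24 to the adult, beside 0.396% and 3.29%. From d12 to the adult, 2 members were lower, Atp1b1 with Atp2b1, both with equal FPKM sums and after upper quartile scaling, beside 49.9% and 37.9% of all genes. Of the log2 changes of members, 5 of 96 alternative values had the other sign: Atp2b2 and Atp2b4 from d12 to d16 under both of those scalings, and Atp2b4 from d12 to the adult with equal FPKM sums (-0.54 instead of 0.67). No paired analysis was possible because the result comes from no test and each stage has 1 library, and for the same reason no library was left out. Differences between animals of 1 age could not be measured. The precision of Atp1a4 before d24 and of Atp2b2 throughout is set by depth, at 1 to 16 fragments.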

Other observations

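Genes beside Atp1a4, named for their position, did not share its level. Casq1, a calcium-binding protein of muscle that lies 3612 bp away, was at 0.682, 0.811, 3.40 and 6.04 FPKM. Igsf8, an immunoglobulin superfamily protein of the cell surface, was at 6.73, 5.38, 5.61 and 5.58 FPKM, and Pea15a at 22.7 FPKM at d12 and 8.10 FPKM in the adult.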
